A study of Mus musculus with 16 samples.

Results

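The livers of untreated 6-month-old mice were compared with those of untreated 1-month-old mice, which are 4 of the 16 RNAseq libraries of a study on the response to diethylnitrosamine (DEN). The libraries were chosen by their labels alone, and the members described are the 418 of 15684 genes tested whose level differed between both ages. The 1-month control mice (given as 3 to 4 weeks of age in the labels and as 1 month in the study's text) and the 6-month control mice were wild-type C57BL/6 males, raised under specific pathogen-free conditions, that received no DEN and were labelled as time point 0, with 2 libraries at each age. The other 12 libraries, used only as a second look at the same ages, came from males of the same strain and both ages, 2 or 6 days after an injection of DEN into the peritoneum (25 mg/kg in the labels and 25 mg/g in the study's methods), with 3 libraries for each age and day. DEN is a liver carcinogen that alkylates DNA after activation by cytochrome P450 enzymes. Each library held equal amounts of RNA from 3 mice, so that the spread between libraries is that between pools of 1 strain and 1 sex.

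The liver of the mouse is still maturing at weaning. Hepatocytes stop dividing, genes of the fetal programme are shut down, and at puberty the pulsatile release of growth hormone in males, acting through STAT5 and factors such as HNF6, sets apart a male and a female pattern of secreted proteins, steroid-metabolising enzymes and transporters, to which androgens contribute. Over the same weeks the connective tissue of a growing organ is laid down and the resident immune cells of the adult liver accumulate.

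The 4 libraries held 21475231 to 34459774 counts, and levels are given as CPM, counts rescaled to the same total in every library with edgeR's TMM factors. The labelled tissue was checked by its markers, and all 12 hepatocyte markers were tested with summed levels of 60519 to 82182 CPM per library, while only 2 of 10 exocrine pancreas markers had enough counts to test. The 1-month libraries stood apart from each other in the phase of the circadian clock, with a clock score (mean log2 CPM over Dbp, Tef, Per1 and 6 others of the same phase minus that of Arntl, Npas2, Clock, Nfil3 and Cry1) of 4.36 in library 1 and -1.08 in library 2, against 1.39 and 1.66 in the 6-month libraries. The share of counts from mitochondrial genes was 4.84%, 2.39%, 5.28% and 5.12% in the same order. The correlation of log2 CPM over genes was 0.975 within the 1-month libraries, 0.980 within the 6-month libraries, and 0.962 to 0.970 between the ages. In 6-month library 2, 13 of the 19 major urinary protein genes tested were listed at a count of 0, although each of them had between 3 and 54720 counts in every other library of the series.

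With edgeR's quasi-likelihood test and a threshold of 0.1 on p-values adjusted over all genes by Benjamini and Hochberg, 252 genes (1.61% of those tested) were upregulated and 166 (1.06%) were downregulated at 6 months, which is 2.67% in either direction. The 2 libraries of one age lay on the same side of the 2 of the other for every one of the 418 genes, as they did for 43.1% of all genes tested. The rise was over 4-fold for 113 genes and the fall was more than 4-fold for 62. Protein-coding genes made up 228 of the upregulated and 153 of the downregulated genes, and cytochrome P450 genes, which are not described further, made up 3 and 11. The median log2 fold change was 1.82 among the upregulated genes, -1.59 among the downregulated genes and -0.01 over all genes tested, of which 12.6% had an unadjusted p under 0.05. The number of calls rested on the libraries in the model, since without 1-month library 1, 1-month library 2, 6-month library 1 or 6-month library 2 there were 120, 63, 80 and 102 upregulated and 156, 51, 51 and 42 downregulated genes, and with the 4 untreated libraries alone 63 and 48.

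**Figure D1:**
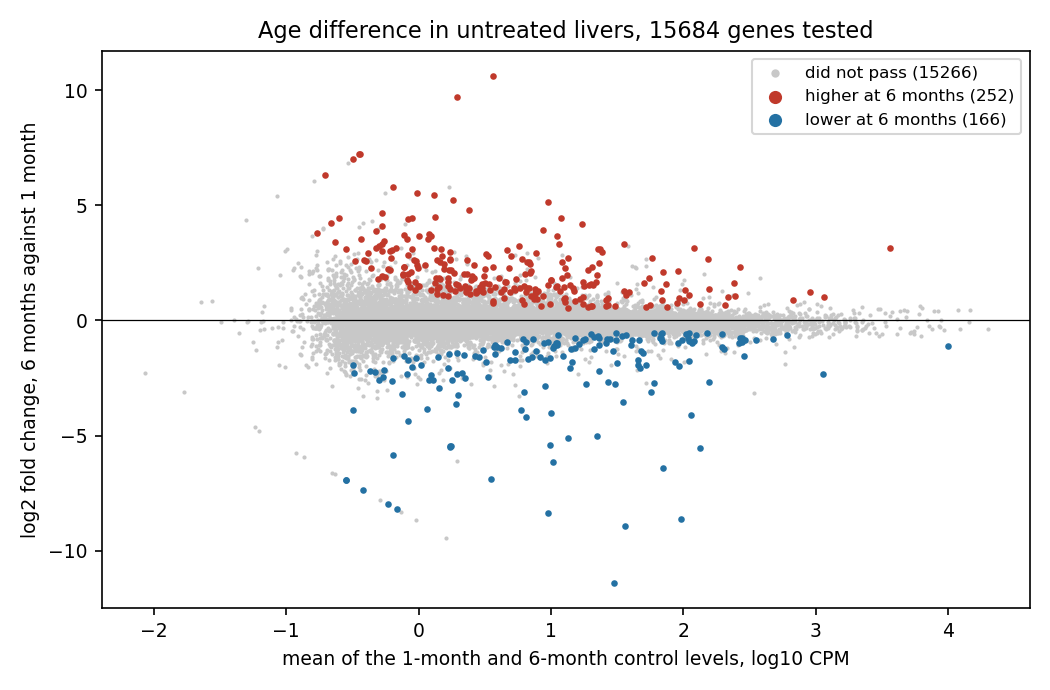
Log2 fold change of 6-month over 1-month untreated livers (vertical axis) against the log10 of the mean CPM of both ages (horizontal axis), 1 point per gene tested apart from 2 with no count in these libraries. Red points are the 252 genes that passed higher at 6 months, blue points the 166 that passed lower, and grey points the rest, and the called genes lie at all levels.

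Several of the genes that rose most were near or under the limit of detection in the younger livers. Moxd1, a relative of dopamine beta-hydroxylase, was measured at 0 and 0 CPM at 1 month and 1.59 and 13 CPM at 6 months, so that the level at 6 months was at least 161-fold higher than the limit set by 3 counts over both 1-month libraries. Tmem28 was measured at 0 and 0 CPM at 1 month and 3.22 and 4.64 CPM at 6 months, which was at least 75.9-fold higher on the same limit. Pdcd1, the inhibitory receptor PD-1 of activated T cells, had 0 and 0.034 CPM at 1 month and 1.35 and 1.19 CPM at 6 months, a ratio of 69.6-fold, with a 95% counting interval of 12.1 to 2789. Grm8, a glutamate receptor, had 0 and 0.102 CPM at 1 month and 2.52 and 2.59 CPM at 6 months, a ratio of 47.4-fold, with a 95% counting interval of 15.9 to 233. These intervals cover counting error only, and both 6-month libraries exceeded both 1-month libraries for each of these genes, whereas the 6-month libraries lay far apart from each other for Moxd1.

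Nat8, which acetylates cysteine conjugates on their way to mercapturic acids (chromosome 6, 85830388 to 85832082 of GRCm38), was at 1.07 and 0.986 CPM at 1 month and 23.5 and 22 CPM at 6 months (log2 fold change 4.46, SE 0.32, adjusted p = 7.67e-06). Serpine2, an inhibitor of thrombin and plasminogen activators, was at 1.53 and 1.67 CPM at 1 month and 20.03 and 20.8 CPM at 6 months (log2 fold change 3.67, SE 0.23, adjusted p = 2.13e-06). The spread within each age was small beside the difference for both. Chrm3, a muscarinic acetylcholine receptor, was at 0.0384 and 0.136 CPM at 1 month and 3.69 and 3.36 CPM at 6 months (log2 fold change 5.22, SE 0.86, adjusted p = 0.00766), and Trhde, an ectoenzyme that degrades thyrotropin-releasing hormone, at 0 and 0.204 CPM at 1 month and 2.8 and 2.28 CPM at 6 months (log2 fold change 4.51, SE 0.66, adjusted p = 0.00308). Nr4a1, an immediate early orphan nuclear receptor, rose from 1.04 and 1.09 CPM to 8.82 and 23.6 CPM (log2 fold change 3.93, SE 0.78, adjusted p = 0.0249), with the 6-month libraries far apart. The rule for named genes also took Hsf2bp, Irg1, Cfd and the pseudogenes Mup-ps12 and Mup-ps16, which were all under 3 CPM at 6 months. Hsf2bp had 2 counts over both 1-month libraries and a ratio of 28.4-fold, with a 95% counting interval of 7.53 to 240.5. Nat8, Serpine2, Tmem28, Pdcd1, Grm8, Chrm3 and Trhde passed whichever of the 4 untreated libraries was left out. With the 4 untreated libraries alone, Trhde, Moxd1, Cfd and Mup-ps16 did not pass (adjusted p = 0.126, 0.208, 0.177 and 0.111, in that order). Moxd1 did not pass without 1-month library 2 or 6-month library 2 (adjusted p up to 0.157). Nr4a1, Hsf2bp and Mup-ps12 did not pass without 1-month library 1, 1-month library 2 or 6-month library 2 (adjusted p up to 0.213, 0.244 and 0.118, in that order). Irg1, Cfd and Mup-ps16 did not pass whichever of the 4 libraries was left out (adjusted p up to 0.254, 0.428 and 0.149, in that order).

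**Figure D2:**
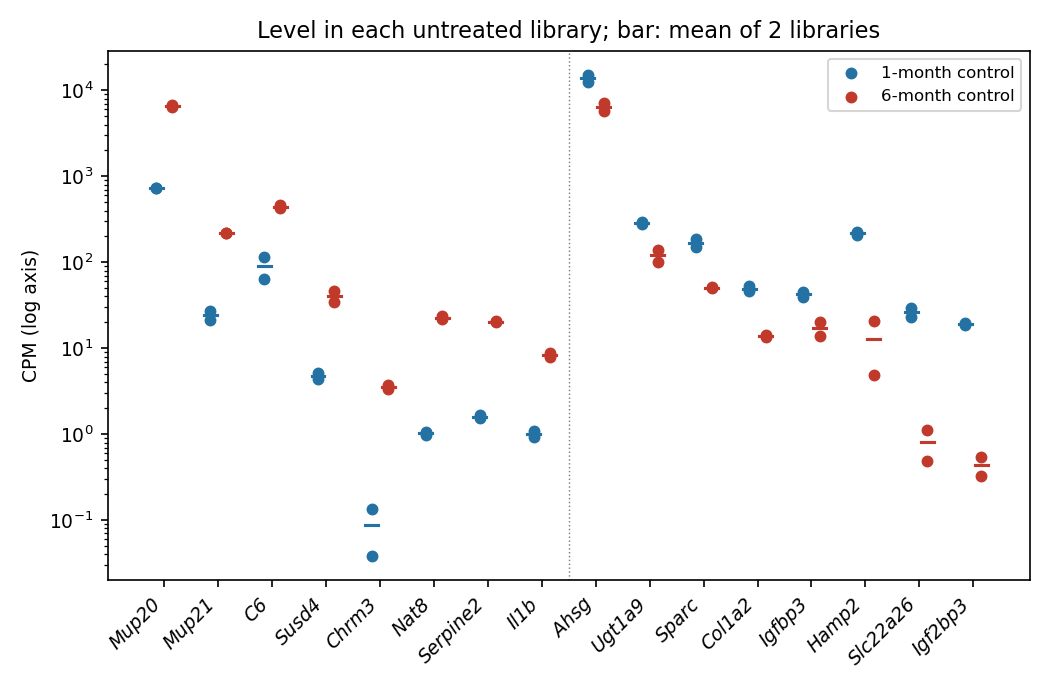
CPM on a log axis of 16 named genes in each of the 4 untreated libraries, blue for 1-month and red for 6-month controls, with a bar at the mean of the 2 libraries. The 8 genes on the left rose and the 8 on the right fell, and the points of both ages do not overlap for any of the 16.

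Several of the genes that fell most were near 0 at 6 months. Hao2, a peroxisomal hydroxy acid oxidase, was at 14.6 and 23.4 CPM at 1 month and 0.0467 and 0.0569 CPM at 6 months, a ratio of 363-fold, with a 95% counting interval of 124 to 1764. H19, the imprinted long noncoding RNA (chromosome 7, 142575529 to 142578143), was at 6.41 and 7.51 CPM at 1 month and 0.0934 and 0.0284 CPM at 6 months, a ratio of 132-fold, with a 95% counting interval of 44.8 to 642. Both had 3 counts over both 6-month libraries. Igf2bp3, an RNA-binding protein of fetal tissues (chromosome 6, 49085223 to 49214957), was at 19.4 and 18.8 CPM at 1 month and 0.327 and 0.54 CPM at 6 months and had the smallest adjusted p of all genes (log2 fold change -5.39, SE 0.30, adjusted p = 5.86e-07).

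A pair of neighbours on chromosome 1 fell together. Tcf24, a basic helix-loop-helix factor (chromosome 1, 9960163 to 9967932), was at 18.5 and 22.7 CPM at 1 month and 0.28 and 0.284 CPM at 6 months (log2 fold change -6.17, SE 0.56, adjusted p = 4.97e-05). Ppp1r42, a protein phosphatase 1 regulatory subunit (chromosome 1, 9968624 to 10009136), was at 1.38 and 1.36 CPM at 1 month and 0 and 0 CPM at 6 months, at least 25.8-fold lower on the limit set by 3 counts. The antisense transcript E330040D14Rik, named here after its values were seen, overlaps both gene models and was also listed at 0 in both 6-month libraries. Without knowledge of strand, the reads of overlapping genes cannot be told apart. The steroid enzymes Akr1c18, which inactivates progesterone, and Hsd3b1 were at 3.18 and 3.6 CPM at 1 month and 0.14 and 0.0284 CPM at 6 months and at 1.46 and 1.05 CPM at 1 month and 0 and 0.0284 CPM at 6 months. Akr1c18 had a log2 fold change of -5.45 (SE 0.84, adjusted p = 0.00449), and the ratio for Hsd3b1 was 70.3-fold, with a 95% counting interval of 12.2 to 2818. The rule further took Sdk1, an adhesion molecule at 1.34 and 0.986 CPM at 1 month and 0 and 0 CPM at 6 months, Cd209f, a lectin at 1.61 and 1.56 CPM at 1 month and 0.0934 and 0.0569 CPM at 6 months, and Fam107a, at 5.29 and 1.6 CPM at 1 month and 0.14 and 0.0284 CPM at 6 months. Igf2bp3, Hao2, Tcf24, Ppp1r42, Akr1c18, Hsd3b1 and Cd209f passed whichever of the 4 untreated libraries was left out. H19 and Sdk1 did not pass without 6-month library 2 (adjusted p up to 0.123 and 0.107, in that order). Fam107a did not pass without 1-month library 1, 6-month library 1 or 6-month library 2 (adjusted p up to 0.36).

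Promoter sequence was read for named genes that had passed in chosen lists. These were the male-biased, female-biased, urinary protein, extracellular matrix, fetal and imprinted growth, and iron homeostasis lists. Windows of 250 bases before to 50 bases after the gene start, from RefSeq on GRCm38.p6, were found for 15 of 21 such genes, in 18 windows. Each window was searched on both strands for the STAT5 site TTCNNNGAA, the HNF6 core ATTGAT and the HNF1 motif GTTAAT. The CCAAT box and the cell cycle homology region TTTGAA were searched in the same way. The motifs were counted separately, and a STAT5 match can hold the cell cycle letters. The STAT5 letters were in 3 of the 18 windows and in 8.30% of all 32851 windows, the HNF6 core in 2 and in 7.54%, and the CCAAT box in 8 and in 37.4%. The HNF1 motif was in 3 windows and in 7.10% of all, and the cell cycle letters in 4 and in 17.9%. The windows shown are the 3 with STAT5 letters, which belong to a gene that rose and to 2 that fell, and 1 each for a urinary protein gene and a collagen gene whose lists are described here. Sequences run 5′ to 3′ in the direction of the gene. A match is a run of letters and not a site shown to be bound.
Moxd1 rose and its window (chr10:24223267-24223566, plus strand) has the STAT5 letters in capitals.
Moxd1 promoter: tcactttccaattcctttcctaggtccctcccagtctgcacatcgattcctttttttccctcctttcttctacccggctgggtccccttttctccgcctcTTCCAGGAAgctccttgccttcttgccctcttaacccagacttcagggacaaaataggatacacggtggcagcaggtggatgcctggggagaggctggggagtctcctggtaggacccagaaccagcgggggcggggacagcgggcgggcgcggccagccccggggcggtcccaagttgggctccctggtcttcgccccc
Slc22a26, a transporter of the organic anion family, fell and its window (chr19:7802618-7802917, minus strand) has the STAT5 letters in capitals.
Slc22a26 promoter: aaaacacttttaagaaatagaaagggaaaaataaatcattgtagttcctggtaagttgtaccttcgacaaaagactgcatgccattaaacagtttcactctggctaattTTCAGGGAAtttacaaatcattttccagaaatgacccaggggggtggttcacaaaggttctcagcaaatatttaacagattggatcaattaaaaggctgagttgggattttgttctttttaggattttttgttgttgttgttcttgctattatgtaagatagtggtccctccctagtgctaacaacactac
Hamp2, a paralogue of hepcidin, fell and its window (chr7:30924132-30924431, minus strand) has the STAT5 letters in capitals.
Hamp2 promoter: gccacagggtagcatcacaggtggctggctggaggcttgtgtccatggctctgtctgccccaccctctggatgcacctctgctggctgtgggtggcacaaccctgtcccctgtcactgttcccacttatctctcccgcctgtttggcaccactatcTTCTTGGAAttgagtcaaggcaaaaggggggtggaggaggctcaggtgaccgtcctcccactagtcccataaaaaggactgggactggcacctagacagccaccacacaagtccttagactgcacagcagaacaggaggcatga
Mup21, a major urinary protein gene, rose and its window (chr4:62150792-62151091, minus strand) has both HNF6 core matches, here on the opposite strand, in capitals.
Mup21 promoter: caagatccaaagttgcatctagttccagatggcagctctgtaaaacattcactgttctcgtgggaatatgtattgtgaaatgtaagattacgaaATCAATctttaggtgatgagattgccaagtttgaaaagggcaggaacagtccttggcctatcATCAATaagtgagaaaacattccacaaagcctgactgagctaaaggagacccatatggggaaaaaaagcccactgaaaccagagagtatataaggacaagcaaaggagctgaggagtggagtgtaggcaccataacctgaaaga
Col1a2, a chain of type I collagen, fell and its window (chr6:4505368-4505667, plus strand) has both CCAAT boxes, one on each strand, in capitals.
Col1a2 promoter: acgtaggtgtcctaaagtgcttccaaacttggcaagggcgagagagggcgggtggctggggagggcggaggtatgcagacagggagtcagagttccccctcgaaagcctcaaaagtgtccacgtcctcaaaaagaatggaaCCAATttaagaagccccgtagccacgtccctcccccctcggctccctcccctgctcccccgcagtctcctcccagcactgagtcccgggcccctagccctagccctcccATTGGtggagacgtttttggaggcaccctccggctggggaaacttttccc

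Of 16 genes tested that are higher in the male liver of the adult mouse, 6 rose at 6 months and none fell in untreated livers. The median log2 fold change was 0.81 there, but 0.10 after DEN. Susd4, a complement regulator, rose from 5.1 and 4.38 CPM to 34.9 and 46.5 CPM (log2 fold change 3.10, SE 0.46, adjusted p = 0.00348). C4a, the sex-limited form of complement component C4, rose from 4.03 and 9.79 CPM to 40.6 and 37.5 CPM (log2 fold change 2.49, SE 0.51, adjusted p = 0.0276), and Serpina12, the serpin vaspin, from 24.5 and 24.1 CPM to 94.8 and 77.7 CPM (log2 fold change 1.83, SE 0.36, adjusted p = 0.0228). The other 3 were Moxd1 and the glutathione transferases Gstp1 and Gstp2, whose near-identical copies may share reads. The remaining 10 did not pass, and all of them were named after their values were seen. Among them were the steroid dehydrogenase Hsd3b5, with means of 139 and 233 CPM, and the fatty acid elongase Elovl3, with 188 and 432 CPM. Their log2 fold changes were 0.745 and 1.2 (adjusted p = 0.416 and 0.848, in that order). Those of Bcl6 and Nudt7 were 1.62 and 0.284. Slco1a1, Selenbp2, Ugt2b1 and Ugt2b38 had 0.119, 0.108, 0.0321 and 0.00606. Egfr and Cspg5 had negative values, -0.385 and -0.564. The number that rose was 2 without 1-month library 1, 2 without 1-month library 2, 2 without 6-month library 1 and 3 without 6-month library 2. Susd4 passed whichever of the 4 untreated libraries was left out. C4a did not pass without 1-month library 1 or 6-month library 1 (adjusted p up to 0.148). Serpina12 did not pass without 1-month library 1, 1-month library 2 or 6-month library 1 (adjusted p up to 0.177).

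Genes that are higher in the female liver moved the other way. Of 30 tested, 9 fell, 1 rose and 20 did not pass, with a median log2 fold change of -1.28. The organic anion transporters Slc22a26 and Slc22a27, close paralogues at chromosome 19, 7781041 to 7802667 and chromosome 19, 7864388 to 7966027, fell from 23.2 and 29.5 CPM to 1.12 and 0.484 CPM (log2 fold change -5.10, SE 0.59, adjusted p = 0.000508) and from 11.9 and 12.6 CPM to 1.21 and 0.256 CPM (log2 fold change -4.18, SE 0.77, adjusted p = 0.0158). A1bg, a plasma glycoprotein, fell from 2.11 and 4.66 CPM to 0.0934 and 0.0569 CPM (log2 fold change -5.48, SE 1.27, adjusted p = 0.0479). The flavin monooxygenases Fmo1 and Fmo2, both on chromosome 1, fell by unequal amounts. Fmo1 was at 368 and 331 CPM at 1 month and 169 and 188 CPM at 6 months (log2 fold change -0.97, SE 0.22, adjusted p = 0.042) and Fmo2 at 55.8 and 36.7 CPM at 1 month and 7 and 7.68 CPM at 6 months (log2 fold change -2.65, SE 0.60, adjusted p = 0.042). Hao2, given above, is on this list and fell as well. Fmo1 and Fmo2 were named after their values were seen. So were the peroxisomal transporter Abcd2 and the lipoprotein receptor Vldlr, which also fell. The gene that rose, named for the same reason, was Ntrk2, a neurotrophin receptor, at 2.07 and 2.79 CPM at 1 month and 11.8 and 5.12 CPM at 6 months (log2 fold change 1.78, SE 0.38, adjusted p = 0.0317).

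The number of female-biased genes that fell was 5 without 1-month library 1, 5 without 1-month library 2, 4 without 6-month library 1 and 2 without 6-month library 2. Slc22a26 passed whichever of the 4 untreated libraries was left out. Slc22a27 did not pass without 6-month library 2 (adjusted p up to 0.154). A1bg did not pass without 1-month library 2, 6-month library 1 or 6-month library 2 (adjusted p up to 0.33). Fmo1 and Fmo2 did not pass whichever of the 4 libraries was left out (adjusted p up to 0.31 and 0.288, in that order). Ntrk2 did not pass without 1-month library 1, 1-month library 2 or 6-month library 1 (adjusted p up to 0.33). Of the sulfotransferases of the Sult2a family, named after their values were seen, Sult2a1, Sult2a2, Sult2a4, Sult2a5 and Sult2a6 did not pass, and were found mainly in 1-month library 2 among the untreated libraries. Sult2a1, for example, was at 0.153 and 7.54 CPM at 1 month and 0 and 0.0853 CPM at 6 months (adjusted p = 0.262).

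The major urinary proteins, lipocalins that carry pheromones in male urine and are encoded by a cluster of close copies on chromosome 4, gave 3 upregulated genes of 19 tested and no downregulated gene. Mup20, which encodes darcin (chromosome 4, 62050234 to 62054158), was at 734 and 728 CPM at 1 month and 6692 and 6440.1 CPM at 6 months (log2 fold change 3.17, SE 0.30, adjusted p = 6.68e-05). Mup21 (chromosome 4, 62147932 to 62150863) was at 21.6 and 27.5 CPM at 1 month and 217 and 217 CPM at 6 months (log2 fold change 3.15, SE 0.43, adjusted p = 0.0016), and Mup5 at 0.153 and 0.136 CPM at 1 month and 1.54 and 2.16 CPM at 6 months (log2 fold change 3.65, SE 0.56, adjusted p = 0.00404). For these 3 genes the libraries of each age lay close together and the ages far apart, and all 3 passed whichever library was left out. The 13 genes listed at 0 in 6-month library 2 belong to the same cluster. Mup7, for example, was at 36.4 and 296 CPM at 1 month and at 1191 and 0 CPM at 6 months, and Mup17 at 1.27 and 26.7 CPM and 182 and 0 CPM, both named after their values were seen. Without 6-month library 2, 7 of the 19 rose, and without 6-month library 1 the 3 still rose and 10 of the genes listed at 0 passed as lower. A change in these 13 genes was not read from the untreated livers, and their values are in the median log2 fold change of the list, which was 1.27 over all 19 and 3.01 over the 6 that were above 0 in every untreated library. Reads of such close copies may also be shared among them.

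The growth hormone and insulin-like growth factor (IGF) axis gave 1 gene of 20 tested higher, 1 lower and a median log2 fold change of -0.14. The growth hormone receptor gene Ghr was at 660.0 and 660.4 CPM at 1 month and 705 and 706 CPM at 6 months and Igf1, the main endocrine growth factor of the liver, at 676 and 733 CPM at 1 month and 683 and 655 CPM at 6 months, neither of which passed (adjusted p = 0.911 and 0.938), both named after their values were seen. Igfbp3, which carries IGF in plasma, fell from 45.1 and 39.5 CPM to 20.2 and 13.9 CPM (log2 fold change -1.31, SE 0.29, adjusted p = 0.0393). Socs1, a feedback inhibitor of cytokine receptors, rose from 0.307 and 0.306 CPM to 0.607 and 1.82 CPM (log2 fold change 2.01, SE 0.52, adjusted p = 0.0835). Igfbp3 and Socs1 did not pass without 1-month library 1, 1-month library 2 or 6-month library 2 (adjusted p up to 0.296 and 0.712, in that order).

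Genes of fetal and imprinted growth control fell or did not pass, with 4 of 18 tested lower, none higher and a median log2 fold change of -0.26. Beside Igf2bp3 and H19, Peg3, a paternally expressed zinc finger gene, fell from 14.5 and 30.04 CPM to 6.49 and 6.37 CPM (log2 fold change -1.79, SE 0.47, adjusted p = 0.086), and Grb10, an imprinted adaptor that restrains insulin and IGF signalling, from 10.5 and 7.27 CPM to 3.03 and 4.55 CPM (log2 fold change -1.22, SE 0.29, adjusted p = 0.0523). Afp, the fetal albumin homologue, was already low at 1 month and did not pass, at 2.15 and 2.58 CPM at 1 month and 2.47 and 2.84 CPM at 6 months, and Igf2, the fetal growth factor next to H19, was at 0.345 and 0.238 CPM at 1 month and 0.373 and 0.256 CPM at 6 months. Both were named after their values were seen. The number that fell was 4 without 1-month library 1, 3 without 1-month library 2, 2 without 6-month library 1 and 1 without 6-month library 2. Igf2bp3 passed whichever of the 4 untreated libraries was left out. H19 did not pass without 6-month library 2 (adjusted p up to 0.123). Peg3 did not pass without 1-month library 2, 6-month library 1 or 6-month library 2 (adjusted p up to 0.561). Grb10 did not pass without 1-month library 1, 6-month library 1 or 6-month library 2 (adjusted p up to 0.401).

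The extracellular matrix list had 11 of 39 tested members lower, with none higher and a median log2 fold change of -0.89, and 35 of the 39 had a negative log2 fold change. Sparc, a collagen-binding matricellular protein (chromosome 11, 55394500 to 55420080), fell from 186 and 152 CPM to 49.6 and 51.4 CPM (log2 fold change -1.74, SE 0.22, adjusted p = 0.000919). Col4a2, a chain of basement membrane collagen IV, fell from 67.9 and 76.6 CPM to 25.6 and 27.8 CPM (log2 fold change -1.43, SE 0.28, adjusted p = 0.0197). Col1a2 fell from 45.8 and 53.1 CPM to 13.4 and 14.1 CPM (log2 fold change -1.84, SE 0.37, adjusted p = 0.0243), and Postn, the matrix protein periostin, from 22.6 and 19.3 CPM to 11 and 7.54 CPM (log2 fold change -1.18, SE 0.23, adjusted p = 0.0243). Among the others that fell, named after their values were seen, were the fibrillar collagens Col1a1, Col3a1 and Col5a1, elastin (Eln), the laminin chain Lamc1, the collagen cross-linking enzyme Loxl2 and the gelatinase Mmp2. Elastin was at 9.63 and 28.1 CPM at 1 month and 0.747 and 1.48 CPM at 6 months (log2 fold change -4.03, SE 0.90, adjusted p = 0.0404), and Col3a1 at 150.4 and 147 CPM at 1 month and 33.7 and 41.8 CPM at 6 months (log2 fold change -1.98, SE 0.40, adjusted p = 0.0276).

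Outside the list, the collagen IV chains Col4a3 and Col4a4, which lie head to head on chromosome 1, fell as well, named after their values were seen. Col4a3 was at 2.84 and 2.55 CPM at 1 month and 0.747 and 0.569 CPM at 6 months (log2 fold change -2.04, SE 0.42, adjusted p = 0.0286), and Col4a4 at 1.42 and 2.68 CPM at 1 month and 0.233 and 0.427 CPM at 6 months (log2 fold change -2.57, SE 0.59, adjusted p = 0.0479). The number of matrix genes on the list that fell was 9 without 1-month library 1, 2 without 1-month library 2, 2 without 6-month library 1 and 1 without 6-month library 2, and it was 21 with the clock score as a covariate. Sparc passed whichever of the 4 untreated libraries was left out. Col4a2, Col1a2, Eln, Col3a1, Col4a3 and Col4a4 did not pass without 1-month library 2, 6-month library 1 or 6-month library 2 (adjusted p up to 0.17, 0.18, 0.31, 0.234, 0.241 and 0.347, in that order). Postn did not pass without 1-month library 1 or 6-month library 2 (adjusted p up to 0.218). The 12 markers of hepatic stellate cells, which make much of this matrix, had none that passed, none with an unadjusted p under 0.05, a median log2 fold change of 0.08 and summed levels of 383 to 418 CPM at 1 month and 348 to 476 CPM at 6 months. The stellate markers of highest level, decorin (Dcn) and Ecm1, were at 138 and 133 CPM at 1 month and 181 and 129 CPM at 6 months and at 97.3 and 103 CPM at 1 month and 101 and 65.3 CPM at 6 months. In bulk tissue, fewer cells of a type and less RNA per cell cannot be told apart.

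**Figure D3:**
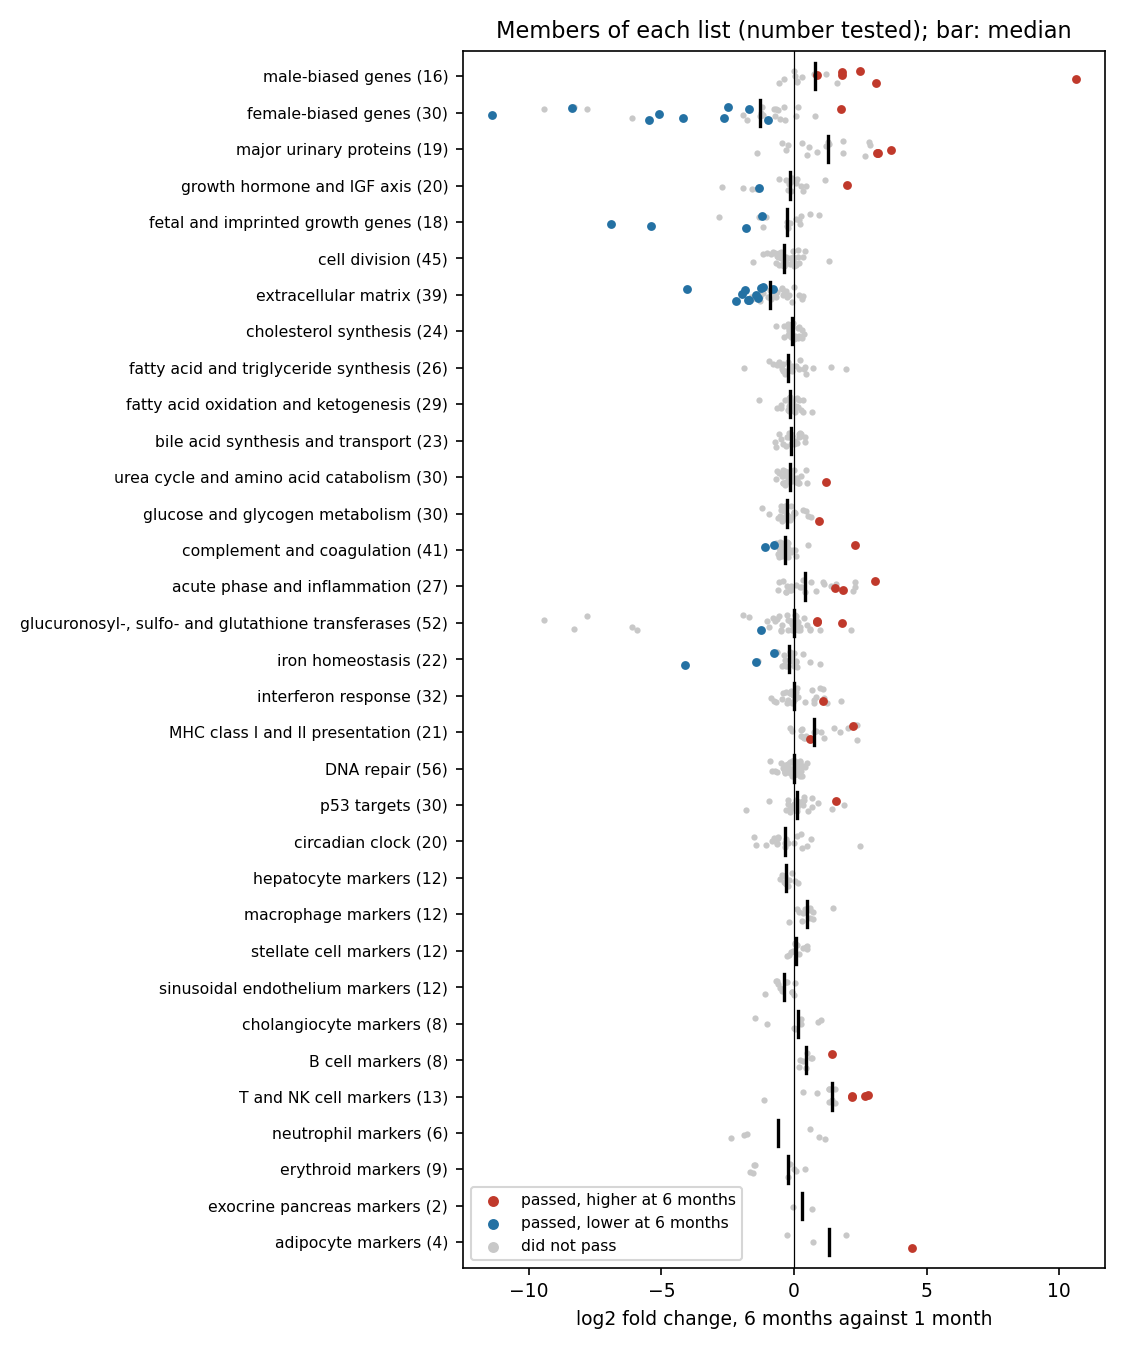
Log2 fold change of 6-month over 1-month untreated livers for each tested member of 33 gene lists, with the number tested in parentheses and a bar at the list's median. Red and blue points passed higher and lower, and grey points did not pass. Members that passed lie to the left in the extracellular matrix list (11 of 39) and to the right in the list of T and NK cell markers (4 of 13), while none passed for DNA repair.

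Part of the lymphocyte markers rose in the older livers. Of 13 markers of T and NK cells tested, 4 rose, none fell and the median log2 fold change was 1.42. Cd8a, the co-receptor of cytotoxic T cells, was at 0.384 and 0.374 CPM at 1 month and 2.33 and 2.9 CPM at 6 months (log2 fold change 2.78, SE 0.60, adjusted p = 0.036). The chemokine Ccl5 was at 2.3 and 1.05 CPM at 1 month and 8.22 and 12.8 CPM at 6 months (log2 fold change 2.66, SE 0.57, adjusted p = 0.0328), the adhesion receptor Cd2 at 0.23 and 0.204 CPM at 1 month and 0.98 and 1.02 CPM at 6 months (log2 fold change 2.19, SE 0.43, adjusted p = 0.0228) and the granule protein Nkg7 at 0.805 and 0.476 CPM at 1 month and 2.47 and 3.3 CPM at 6 months (log2 fold change 2.18, SE 0.52, adjusted p = 0.0569). The summed level of the 13 markers was 8.73 to 13.2 CPM at 1 month and 27.6 to 35.8 CPM at 6 months. Of 8 B cell markers, Jchain, the joining chain of secreted immunoglobulin, rose from 1.88 and 1.26 CPM to 4.3 and 4.18 CPM (log2 fold change 1.44, SE 0.32, adjusted p = 0.0404), and the summed level was 7.54 to 9.21 CPM and 12.1 to 14.8 CPM. None of 12 macrophage markers passed, with a median of 0.50 and sums of 514 to 859 CPM and 833 to 1044 CPM, and Clec4f, which marks Kupffer cells, was at 186 and 129 CPM at 1 month and 151 and 123.5 CPM at 6 months and Cd5l at 181 and 93.5 CPM at 1 month and 244 and 209 CPM at 6 months. Of these 12, 5 had an unadjusted p under 0.05 (12.6% of all genes did) and 1 passed with DESeq2 (416 and 311 of all genes did, higher and lower). Cd22, a B cell receptor, was at 2.34 and 1.7 CPM at 1 month and 2.61 and 2.5 CPM at 6 months. The number of T and NK markers that rose was 2 without 1-month library 1, 0 without 1-month library 2, 2 without 6-month library 1 and 0 without 6-month library 2. Cd8a and Nkg7 did not pass whichever of the 4 libraries was left out (adjusted p up to 0.263 and 0.396, in that order). Ccl5 and Cd2 did not pass without 1-month library 2 or 6-month library 2 (adjusted p up to 0.3 and 0.207, in that order). Jchain did not pass without 1-month library 2, 6-month library 1 or 6-month library 2 (adjusted p up to 0.354).

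Of 27 genes of the acute phase and inflammation, 3 rose and none fell (median log2 fold change 0.41). Il1b, the gene of interleukin-1 beta, was at 0.921 and 1.09 CPM at 1 month and 7.84 and 8.79 CPM at 6 months (log2 fold change 3.04, SE 0.36, adjusted p = 0.000631). Saa3, an inducible serum amyloid A, was at 5.75 and 4.79 CPM at 1 month and 13.5 and 24.4 CPM at 6 months (log2 fold change 1.85, SE 0.28, adjusted p = 0.00348), and Orm2, an acute phase glycoprotein, at 9.82 and 11.5 CPM at 1 month and 20.5 and 41.7 CPM at 6 months (log2 fold change 1.55, SE 0.41, adjusted p = 0.087). Of 21 genes of antigen presentation, 2 rose and the median was 0.75. Ciita, the master regulator of MHC class II, was at 1.42 and 0.816 CPM at 1 month and 3.88 and 6.54 CPM at 6 months (log2 fold change 2.23, SE 0.53, adjusted p = 0.0567), and the class I gene H2-Q4, which has close copies, at 43.8 and 39.5 CPM at 1 month and 56.6 and 69 CPM at 6 months (log2 fold change 0.59, SE 0.16, adjusted p = 0.0881). The class II genes on the list did not pass, such as H2-Aa at 26.6 and 7.61 CPM at 1 month and 68.3 and 107 CPM at 6 months and the invariant chain Cd74 at 84 and 28.1 CPM at 1 month and 194 and 263 CPM at 6 months, both named after their values were seen, for which 1-month library 2 was lower than library 1. With DESeq2, with the clock score as a covariate or with the replicate number as a block, 9 of the 21 passed. Of 32 interferon response genes, Irf1 passed and no other, at 21.6 and 25.8 CPM at 1 month and 47.1 and 53.8 CPM at 6 months (log2 fold change 1.09, SE 0.23, adjusted p = 0.0327), with Bst2 at 176 and 197 CPM at 1 month and 159 and 194 CPM at 6 months. Il1b and Saa3 passed whichever of the 4 untreated libraries was left out. With the 4 untreated libraries alone, Saa3, Orm2, Ciita and H2-Q4 did not pass (adjusted p = 0.1252, 0.193, 0.144 and 0.262, in that order). Orm2 did not pass without 1-month library 1, 1-month library 2 or 6-month library 2 (adjusted p up to 0.588). Ciita, H2-Q4 and Irf1 did not pass whichever of the 4 libraries was left out (adjusted p up to 0.395, 0.511 and 0.185, in that order). Whether the genes that rose moved with the lymphocyte markers above was not tested, nor was the part of cell number in them.

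In 7 lists of metabolism, 6 of 214 genes passed, or 2.80%, a share near the 2.67% over all genes tested. None of 24 genes of cholesterol synthesis, 26 of fatty acid and triglyceride synthesis, 29 of fatty acid oxidation and ketogenesis and 23 of bile acid synthesis and transport passed, and their median log2 fold changes were -0.08, -0.22, -0.14 and -0.11. In the same edgeR test 0, 4, 2 and 4 of them had an unadjusted p under 0.05, against 12.6% of all genes, and DESeq2 called 1 gene each of the last 3 lists. Fasn, the fatty acid synthase, was at 911 and 704 CPM at 1 month and 1359 and 462 CPM at 6 months, and the desaturase Scd1 at 7686 and 12223 CPM at 1 month and 19984 and 7493 CPM at 6 months, so that the 6-month libraries lay on both sides of the 1-month libraries. The liver fatty acid carrier Fabp1 was at 3195 and 2752 CPM at 1 month and 3515 and 3964 CPM at 6 months. The cholesterol enzyme Sc5d was at 449.6 and 855 CPM at 1 month and 770.4 and 467 CPM at 6 months. The bile acid carrier Slco1b2 was at 1654 and 1689 CPM at 1 month and 1662 and 1689 CPM at 6 months (log2 fold change 0.00, SE 0.18), and Scp2 at 3722 and 4680.1 CPM at 1 month and 5648 and 5451 CPM at 6 months.

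Of 30 genes of the urea cycle and amino acid catabolism, Oat, the ornithine aminotransferase of pericentral hepatocytes, rose from 573 and 526 CPM to 1299 and 1254 CPM (log2 fold change 1.22, SE 0.32, adjusted p = 0.086) and none fell, while the urea cycle enzyme Cps1 was at 5665 and 7209 CPM at 1 month and 5028 and 4285 CPM at 6 months and Mat1a, which makes S-adenosylmethionine, at 4263 and 3299 CPM at 1 month and 2602 and 2490.1 CPM at 6 months. Of 30 genes of glucose and glycogen metabolism, Pkm, the pyruvate kinase of tissues other than the hepatocyte, rose from 20.4 and 16 CPM to 36.1 and 34.8 CPM (log2 fold change 0.96, SE 0.24, adjusted p = 0.0737), while Pck1, of gluconeogenesis, was at 3672 and 3779 CPM at 1 month and 3154 and 3108 CPM at 6 months. Of 52 glucuronosyl-, sulfo- and glutathione transferases, 3 rose and 1 fell. Gstp1 rose from 438 and 508 CPM to 817 and 915 CPM (log2 fold change 0.87, SE 0.22, adjusted p = 0.075), Gstp2 from 2.19 and 1.36 CPM to 7.19 and 5.38 CPM (log2 fold change 1.82, SE 0.44, adjusted p = 0.0592) and Ugt3a1 from 63.6 and 78.9 CPM to 139.7 and 123.4 CPM (log2 fold change 0.88, SE 0.21, adjusted p = 0.0485). Ugt1a9 fell from 293 and 279 CPM to 100.4 and 139 CPM (log2 fold change -1.25, SE 0.23, adjusted p = 0.0137). Oat, Pkm, Gstp1, Gstp2 and Ugt3a1 did not pass whichever of the 4 libraries was left out (adjusted p up to 0.407, 0.464, 0.334, 0.411 and 0.298, in that order). Ugt1a9 did not pass without 6-month library 1 (adjusted p up to 0.17).

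Secreted plasma proteins showed a rise of 1 gene and a fall of 2 among 41 genes of complement and coagulation, with a median log2 fold change of -0.33. C6, a component of the membrane attack complex, was at 63.9 and 115 CPM at 1 month and 423 and 466 CPM at 6 months (log2 fold change 2.31, SE 0.41, adjusted p = 0.0121). Ahsg, the calcification inhibitor fetuin-A, was at 12346 and 15169 CPM at 1 month and 5693 and 7040.1 CPM at 6 months (log2 fold change -1.11, SE 0.21, adjusted p = 0.0187), and the coagulation factor gene F7 at 119 and 154 CPM at 1 month and 77.7 and 82.2 CPM at 6 months (log2 fold change -0.77, SE 0.19, adjusted p = 0.0663). None of 12 hepatocyte markers passed or had an unadjusted p under 0.05, and their median was -0.29, with Apob at 8133 and 9420.1 CPM at 1 month and 7739 and 10192 CPM at 6 months and Trf at 20483 and 24647 CPM at 1 month and 17385 and 17159 CPM at 6 months. Of 22 genes of iron homeostasis 3 fell. Hamp2 was at 223 and 209 CPM at 1 month and 20.8 and 4.84 CPM at 6 months (log2 fold change -4.09, SE 0.85, adjusted p = 0.0286), the ferroxidase gene Heph at 3.49 and 2.21 CPM at 1 month and 0.794 and 1.28 CPM at 6 months (log2 fold change -1.43, SE 0.34, adjusted p = 0.0541) and Slc39a14, which imports iron and zinc, at 373 and 322 CPM at 1 month and 199 and 212 CPM at 6 months (log2 fold change -0.76, SE 0.19, adjusted p = 0.0779). C6 passed whichever of the 4 untreated libraries was left out. Ahsg did not pass without 1-month library 2 or 6-month library 1 (adjusted p up to 0.201). F7 did not pass without 1-month library 2, 6-month library 1 or 6-month library 2 (adjusted p up to 0.465). Hamp2 did not pass without 6-month library 2 (adjusted p up to 0.206). Heph did not pass without 1-month library 1, 6-month library 1 or 6-month library 2 (adjusted p up to 0.389). Slc39a14 did not pass whichever of the 4 libraries was left out (adjusted p up to 0.404).

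Cell division genes did not pass one by one. Of 45 tested, none rose or fell in edgeR's test and 1 fell with DESeq2. An unadjusted p under 0.05 was found for 2 of them (12.6% of all genes had one). However, 35 had a negative log2 fold change and the median was -0.37. The members of highest CPM were Ccnd1, cyclin D1, at 100.2 and 30.01 CPM at 1 month and 41.7 and 64.9 CPM at 6 months, and Tk1, thymidine kinase, at 28.3 and 30.5 CPM at 1 month and 18.8 and 20.8 CPM at 6 months (adjusted p = 0.475). The levels of Ccnd1 overlapped between the ages and those of Tk1 did not. None of 56 DNA repair genes passed in edgeR's test, 1 passed lower with DESeq2, and the median was -0.00383. Of the 56, 5 had an unadjusted p under 0.05 (12.6% of all genes did). Ddb1, a damage sensor of nucleotide excision repair, was at 296 and 262 CPM at 1 month and 257 and 259 CPM at 6 months, and Trim28, a chromatin corepressor phosphorylated by ATM, at 68.2 and 65.4 CPM at 1 month and 57.6 and 59.8 CPM at 6 months. Of 30 p53 targets, the noncoding RNA Pvt1 rose from 0.997 and 0.918 CPM to 2.85 and 2.87 CPM (log2 fold change 1.58, SE 0.34, adjusted p = 0.0364). The p53 targets of highest level, Ephx1 and Ei24, were at 460.5 and 517 CPM at 1 month and 382 and 411 CPM at 6 months and at 203 and 237 CPM at 1 month and 204 and 172 CPM at 6 months. Pvt1 did not pass whichever of the 4 libraries was left out (adjusted p up to 0.264).

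Other markers were read one by one, and their groups were not tested. None of 12 sinusoidal endothelial markers (median log2 fold change -0.37, with Mrc1 at 81.9 and 63.1 CPM at 1 month and 69.2 and 51.5 CPM at 6 months and Stab2 at 85.9 and 76.8 CPM at 1 month and 55.9 and 46.4 CPM at 6 months), 8 cholangiocyte markers (0.14, with Spp1 at 61.3 and 27.3 CPM at 1 month and 42.2 and 62.8 CPM at 6 months), 6 neutrophil markers (-0.59), 9 erythroid markers (-0.24) or 20 clock genes (-0.34) passed, and 4, 0, 1, 5 and 1 of them had an unadjusted p under 0.05. Over all genes tested, 12.6% had an unadjusted p under 0.05, a share that the endothelial, neutrophil and erythroid markers exceeded. With DESeq2, 1 endothelial and 1 neutrophil marker passed. The neutrophil genes Csf3r and S100a9 were at 3.34 and 2.01 CPM at 1 month and 7.19 and 4.81 CPM at 6 months and at 1.76 and 1.46 CPM at 1 month and 2.43 and 2.42 CPM at 6 months. The erythroid genes Hbb-bs and Alas2 were at 171 and 267 CPM at 1 month and 80.5 and 79.3 CPM at 6 months and at 114 and 146 CPM at 1 month and 170.0 and 175 CPM at 6 months. The pancreatic elastases Cela1 and Cela2a, of which neither passed, were at 10.01 and 12.3 CPM at 1 month and 16.4 and 19.3 CPM at 6 months and at 0.614 and 0.578 CPM at 1 month and 0.28 and 0.825 CPM at 6 months. The clock gene Bhlhe40 was at 118 and 108 CPM at 1 month and 118 and 155 CPM at 6 months. For the clock gene Tef, at 269 and 69.7 CPM at 1 month and 122 and 151 CPM at 6 months, the 1-month libraries lay on both sides of the 6-month libraries. Of 4 adipocyte markers Cfd, adipsin, passed at 0.153 and 0 CPM at 1 month and 2.29 and 1.11 CPM at 6 months, while Pparg was at 11.5 and 7.07 CPM at 1 month and 15.5 and 15 CPM at 6 months and Fabp4 at 10.9 and 9.86 CPM at 1 month and 9.01 and 8.16 CPM at 6 months.

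The DEN-treated livers share no library with the untreated ones, although 1 model estimated the spread of all, and the same ages were compared in them, as the mean of both days at 6 months against that at 1 month. There, 3083 of 15684 genes (19.7%) passed, 1676 (10.7%) higher and 1407 (8.97%) lower. Same-numbered libraries of the 1-month control and 1-month day 6 groups deviated alike from their group means (correlation 0.54 and 0.59). For the other same-numbered, same-age pairs of untreated and DEN-treated libraries it was -0.27 to 0.31. The untreated and DEN comparisons may thus not be fully independent. Of the 252 genes upregulated in untreated livers, 230 also passed as higher after DEN, which is 91.3% of them and 13.7% of the genes higher after DEN. Of the 166 downregulated genes, 150 also passed as lower, which is 90.4% of them and 10.7% of the genes lower after DEN. The levels of all 6 DEN-treated libraries of one age lay beyond those of all 6 of the other for 162 of the 252 and 98 of the 166. The share over all genes tested was not counted, so these numbers have no background to be read against. The median log2 fold change after DEN was 1.30 among the upregulated and -1.05 among the downregulated genes, against 1.82 and -1.59 without treatment, where the genes had been selected.

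For the genes that led the untreated comparison the levels after DEN were as follows. Nat8 ranged over 1.13 to 3.31 CPM (median 1.93) in the 6 DEN-treated libraries of 1-month-old mice and 20.5 to 38 CPM (median 28.4) in those of 6-month-old mice (log2 fold change 3.80, adjusted p = 1.21e-08). Mup20 ranged over 738 to 1952 CPM (median 1061) in the 6 DEN-treated libraries of 1-month-old mice and 4115 to 7060.1 CPM (median 4872) in those of 6-month-old mice (log2 fold change 2.23, adjusted p = 2.30e-06). Igf2bp3 ranged over 8.11 to 18.4 CPM (median 12.4) in the 6 DEN-treated libraries of 1-month-old mice and 0.384 to 0.656 CPM (median 0.504) in those of 6-month-old mice (log2 fold change -4.62, adjusted p = 1.30e-09). The 6 libraries of one age lay apart from the 6 of the other for all 3 genes. After DEN, 21 of the 39 matrix genes were lower and 1 was higher, 10 of 13 T and NK markers and 13 of 21 antigen presentation genes were higher, and 15 of 45 cell division genes were lower. Of 16 male-biased genes, 6 were higher and 0 lower, with a median log2 fold change of 0.10 against 0.81 without treatment. Of 30 female-biased genes, 18 were lower and 2 higher, with a median of -1.14 against -1.28. Of 30 p53 targets, 20 were higher and 1 lower, with a median of 0.81 against 0.11 without treatment, where 1 was higher. In the DEN-treated libraries, age and a response to DEN that differs by age cannot be told apart. For the major urinary proteins, all of which were above 0 in the DEN-treated libraries apart from 1 gene in 1 library, 6 of 19 were higher and 1 was lower.

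**Figure D4:**
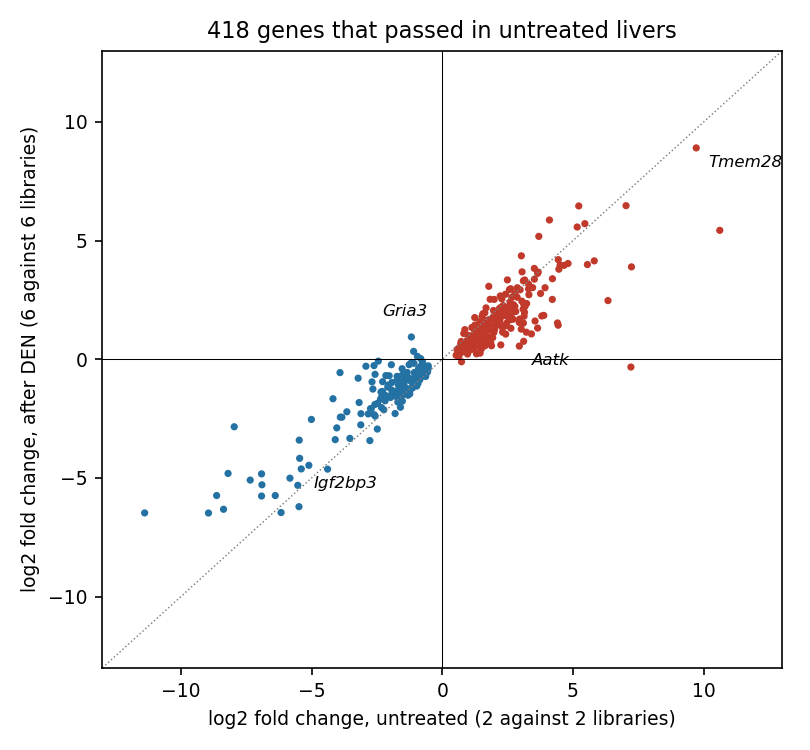
Log2 fold change of 6-month over 1-month livers after DEN (vertical axis, 6 against 6 libraries) against that in untreated livers (horizontal axis, 2 against 2 libraries) for the 418 genes that passed in untreated livers, red for higher and blue for lower at 6 months. The dotted line marks equal values. Of the red points 250 of 252, and of the blue points 162 of 166, have the same sign on both axes.

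Of 15684 genes, 2 (0.0128%) had an age difference in untreated livers that differed from that after DEN in a test of the difference itself, and 480 had an unadjusted p under 0.05. Aatk, a membrane-bound kinase of neurons, was at 1.92 and 1.6 CPM at 1 month and 13.4 and 13.7 CPM at 6 months without treatment (log2 fold change 2.95, SE 0.25, adjusted p = 2.55e-05). After DEN it ranged over 1.63 to 2.71 CPM (median 1.86) in the 6 DEN-treated libraries of 1-month-old mice and 2.52 to 3.45 CPM (median 2.84) in those of 6-month-old mice (log2 fold change 0.56, adjusted p = 0.0229). Both untreated 6-month libraries were higher than all other 14 libraries. The difference between both log2 fold changes was 2.39 (adjusted p = 0.0107). Gria3, an AMPA glutamate receptor subunit, was at 4.87 and 6.76 CPM at 1 month and 2.47 and 2.65 CPM at 6 months without treatment (log2 fold change -1.18, SE 0.28, adjusted p = 0.0485) and ranged after DEN over 8.1 to 15.8 CPM (median 10.4) in the 6 DEN-treated libraries of 1-month-old mice and 17.4 to 25.1 CPM (median 20.6) in those of 6-month-old mice (log2 fold change 0.94, adjusted p = 0.0012). It was thus lower at 6 months without treatment and higher after DEN, with a difference of -2.12 (adjusted p = 0.0684). Sulf2, which removes sulfate from heparan sulfate, also passed in opposite directions, but the test of the difference did not pass (adjusted p = 0.292). Without treatment Sulf2 was lower at 6 months (log2 fold change -1.09, adjusted p = 0.0286). With the 4 untreated libraries alone Sulf2 did not pass (adjusted p = 0.1252). After DEN Sulf2 ranged over 11.8 to 26.3 CPM at 1 month and 21.1 to 25.6 CPM at 6 months. These ranges overlapped, and the call was close to the threshold (log2 fold change 0.33, adjusted p = 0.0986). These 3 genes were named after their values were seen.

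**Figure D5:**
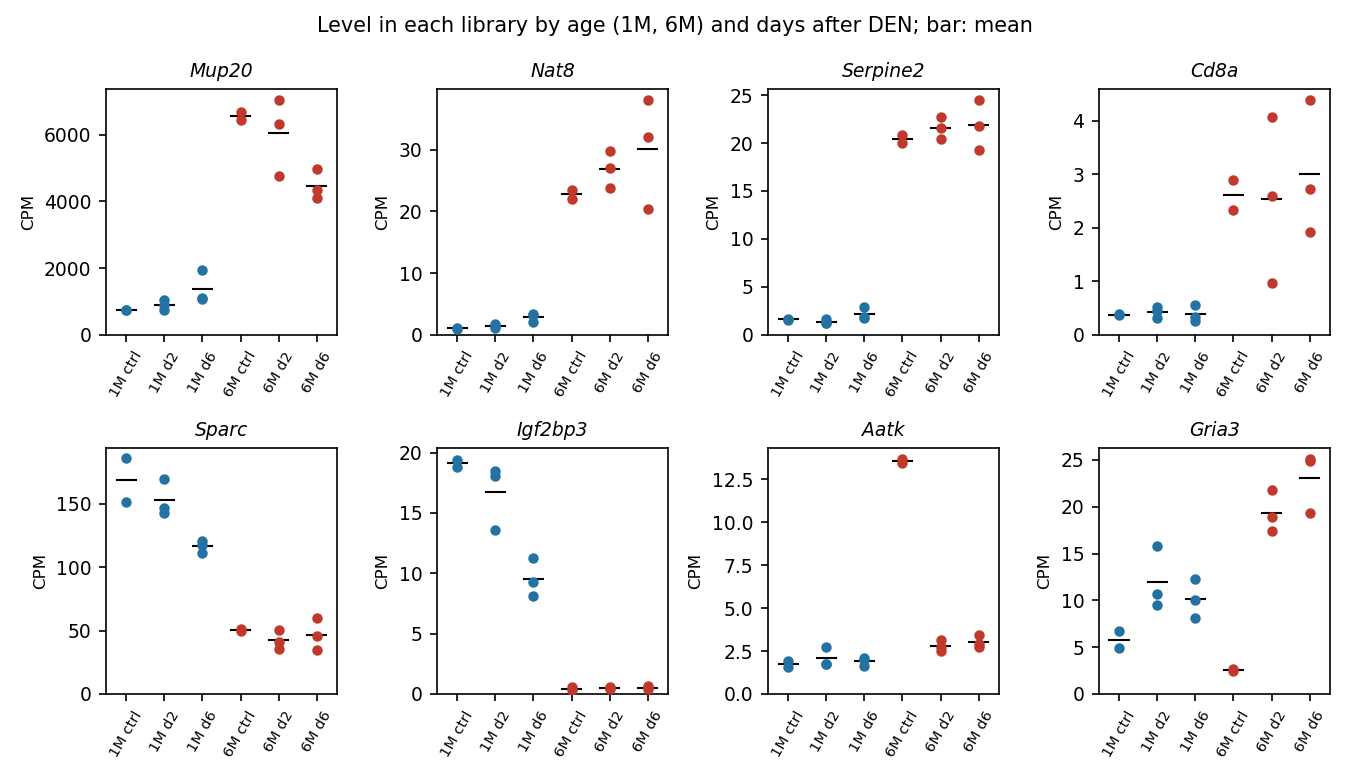
CPM of 8 genes in each of the 16 libraries, grouped by age (blue 1 month, red 6 months) and by treatment (control, day 2 and day 6 after DEN), with a bar at the group mean. Mup20, Nat8, Serpine2 and Cd8a are high and Sparc and Igf2bp3 low in all 6-month groups, whereas Aatk is high in the untreated 6-month group alone and Gria3 is lowest there.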

How the data were processed

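RNA was measured in 16 mouse liver libraries, each a pool of 3 mice, of which 4 were untreated and are compared here. Groups and replicates were taken from the labels. The authors used a TruSeq kit and a NextSeq sequencer, with TopHat2 2.0.13 as the aligner to GRCm38. The submitters' processing notes also name cutadapt, Cufflinks 2.2.1, Cuffnorm and DESeq2 1.10.1. The deposited values used are whole-number counts per gene. The counting program, its use of strand and its handling of close copies were not given in the sources used here. Genes with near copies or overlapping neighbours may therefore share reads. The same table holds 16 columns of normalized counts per sample and the authors' own fold changes and p-values, none of which were used.

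Of 47729 rows, 10 lacked a count in some library column and were left out. Library sizes were scaled by TMM, and filterByExpr with the 6 groups left 15684 genes. The main test was the quasi-likelihood F test of edgeR 4.0.16 (run under R 4.3.3, beside limma 3.58.1), in a single model of all 16 libraries and 6 groups, so that 2 against 2 libraries borrow the spread of all groups (common biological coefficient of variation 0.218), with Benjamini-Hochberg adjustment and a threshold of 0.1, as in the study. The p-values measure the spread between pools, which may be technical in part. Fold changes of fitted values use a prior count of 0.125, on which they depend at low counts. Where a group had at most 3 counts, the ratio of scaled counts with an exact binomial interval (95%), or a limit from 3 counts over the group, is given in place of the fold change. Total counts were 19039330 to 34459774 per library. Intervals cover counting error only.

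The members, the 33 lists and the tests were chosen with earlier results of these data known. The text names, from the genes that passed without overlap, with an official symbol and a mean of 1 CPM or more at one age, the 15 of greatest rise and the 15 of greatest fall, then up to 4 members per list with the smallest p, and the 2 of highest CPM in lists with fewer than 2 calls, all without cytochrome P450 genes. Some genes that the rule took are not reported here. Any other gene is marked as named after its values were seen. The alternatives were DESeq2 1.42.0, RLE and upper-quartile scaling, no filter, the replicate block, a clock score as covariate, the untreated libraries alone, a threshold of 0.05 and leaving out each library. The edgeR test of the untreated age comparison was also run on simulated counts with known changes. Promoter sequences are RefSeq's on GRCm38.p6. Python 3.11.15, pandas 2.3.3, numpy 2.4.6, scipy 1.17.1 and matplotlib 3.10.9 made the tables and figures.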

Additional observations from a re-analysis of the deposited data

Results flagged for a closer look

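The age difference differed between untreated and DEN-treated livers for 2 genes by a test of the difference. For Aatk the difference of the log2 fold changes, untreated minus DEN-treated, was 2.39 (adjusted p = 0.0107), and it no longer passed without 1-month library 2 (adjusted p = 0.313) or 6-month library 2 (0.126). For Gria3 it was -2.12 (adjusted p = 0.0684), and leaving out 1 of the 16 libraries gave adjusted p-values of 0.01 to 0.696, with the call lost for 11 of the 16. The cause was not tested for either gene.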

How the results depend on the processing

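For untreated livers, the 252 upregulated and 166 downregulated genes became 416 and 311 with DESeq2, 464 and 384 when the clock score entered as covariate, 464 and 330 without a filter on low counts, 63 and 48 with the 4 untreated libraries alone, and 146 and 98 at an adjusted p under 0.05. With 1 untreated library left out there were 63 to 120 and 42 to 156, where the lone library of an age was assumed to vary like the other groups. RLE and upper-quartile scaling stayed within 1.5 times of the counts, with 254 and 260 upregulated and 171 and 154 downregulated genes. None of the 418 genes changed direction under the 11 alternatives that refitted the test, in which all were fitted except with the untreated libraries alone, which fitted 414. The untreated libraries of both ages did not overlap for any of the 418. Leaving out 1 library or rescaling could therefore hardly reverse a direction, and the unchanged directions are no test of those choices. The edgeR fit of the 4 untreated libraries alone is given gene by gene only in some paragraphs. Among other genes that did not pass in it were Slc22a27, C4a, Postn and Eln (adjusted p = 0.101, 0.111, 0.151 and 0.111). Ahsg, Ccl5, Ugt1a9 and Hamp2 did not pass in it (adjusted p = 0.175, 0.117, 0.111 and 0.117). After DEN, leaving out 1 library gave 1063 to 2113 upregulated and 939 to 2032 downregulated genes. The 2 genes whose age difference differed between untreated and DEN-treated livers became 5 with DESeq2 and 0 to 10 with 1 library left out. Of 65 genes that the rule named and that passed, 21 passed under all 11 alternatives, and 31 were lost with the untreated libraries alone and 27 to 38 with 1 library left out.

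The replicate numbers are shared by both ages, but the correlation of the deviations of same-numbered untreated libraries was 0.049, so that they were not taken as pairs. Among the DEN-treated groups of different age it was -0.096 to 0.35 over 12 pairs, while same-numbered libraries of both 6-month DEN groups gave 0.23 to 0.49. It was highest, at 0.54 and 0.59, for same-numbered libraries of the 1-month control and 1-month day 6 groups. For the other same-numbered pairs of untreated and DEN-treated libraries of the same age it was -0.27 to 0.31. The replicate block gave 1794 upregulated and 1514 downregulated genes after DEN. In untreated livers the replicate block gave 300 and 216 genes, of which 240 and 158 were among those reported, 3 genes passed in the difference from DEN, and Sc5d had a log2 fold change of 0.056. Tef, once the clock score was in the model, was at 0.026. With 1 library left out, the log2 fold changes of genes that had not passed and changed sign ranged over -0.91 to 0.83 for Ccnd1, -0.48 to 0.46 for Sc5d, -0.41 to 1.00 for Scd1, -0.80 to 0.75 for Fasn, -0.012 to 0.018 for Slco1b2, -0.23 to 0.056 for Bst2, -0.98 to 0.97 for Tef, -0.18 to 0.22 for Apob, -0.44 to 0.089 for Clec4f, -0.066 to 0.42 for Dcn, -0.61 to 0.022 for Ecm1, -0.22 to 0.94 for Spp1, -1.08 to 0.47 for Cela2a, -15.13 to 4.03 for Mup7 and -11.57 to 6.16 for Mup17. The causes were not tested, other than that fewer libraries leave fewer degrees of freedom and that Mup7 and Mup17 are listed at 0 in 6-month library 2. With 2 libraries per age, genes at a few counts can be called at large fold changes only, and a p that missed the threshold does not show equal levels.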

Other observations

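A few genes were picked because they had passed and are given as single values, with no count over the families to which they belong. The metallothioneins Mt1 and Mt2, small proteins that bind zinc and copper and are neighbours on chromosome 8, fell from 104 and 100.3 CPM to 8.73 and 14.7 CPM (log2 fold change -3.12, SE 0.62, adjusted p = 0.025) and from 54 and 75 CPM to 3.27 and 7.68 CPM (log2 fold change -3.53, SE 0.71, adjusted p = 0.0252). Beside Slc39a14, the zinc importers Slc39a4 and Slc39a5 also fell. Slc39a4 was at 126 and 179 CPM at 1 month and 65.6 and 91.2 CPM at 6 months (log2 fold change -0.96, SE 0.24, adjusted p = 0.0726), and Slc39a5 at 1.53 and 4.62 CPM at 1 month and 0.56 and 0.484 CPM at 6 months (log2 fold change -2.57, SE 0.68, adjusted p = 0.0875). Mt1 did not pass without 6-month library 1 or 6-month library 2 (adjusted p up to 0.233). Mt2 did not pass without 1-month library 2 or 6-month library 1 (adjusted p up to 0.233). Slc39a4 and Slc39a5 did not pass without 1-month library 2, 6-month library 1 or 6-month library 2 (adjusted p up to 0.498 and 0.611, in that order).

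The zinc finger genes Zfp872, Zfp809, Zfp810, Gm13251 and Gm13152 were picked in the same way. On chromosome 9 between 22188168 and 22307638 of GRCm38, Zfp872 was at 0.153 and 0.374 CPM at 1 month and 2.01 and 1.31 CPM at 6 months, Zfp809, which takes part in silencing of proviral DNA, at 10.3 and 11.1 CPM at 1 month and 19.7 and 19.3 CPM at 6 months (log2 fold change 0.87, SE 0.14, adjusted p = 0.00788), and Zfp810 at 3.91 and 4.45 CPM at 1 month and 7.1 and 8.59 CPM at 6 months (log2 fold change 0.91, SE 0.20, adjusted p = 0.0404). On chromosome 4, Gm13251 was at 3.41 and 1.94 CPM at 1 month and 11.1 and 11.2 CPM at 6 months (log2 fold change 2.06, SE 0.26, adjusted p = 0.000989) and Gm13152 at 4.41 and 2.79 CPM at 1 month and 23.2 and 18.2 CPM at 6 months (log2 fold change 2.52, SE 0.28, adjusted p = 0.000348), both among close copies that may share reads. Of lysosomal hydrolases, 5 picked in the same way fell, from 180.4 and 179 CPM to 129 and 115 CPM for Man2b1, from 21.9 and 26.4 CPM to 16.5 and 15.2 CPM for Glb1, from 40.2 and 45.1 CPM to 28.1 and 25.5 CPM for Naglu, from 67.3 and 75.4 CPM to 50.2 and 48.3 CPM for Siae and from 121 and 129.5 CPM to 83.8 and 83.5 CPM for Plbd2, with adjusted p-values of 0.0393 to 0.083. Zfp809, Gm13251 and Gm13152 passed whichever of the 4 untreated libraries was left out. With the 4 untreated libraries alone, Zfp809 and Gm13251 did not pass (adjusted p = 0.117 and 0.108). Neither did Zfp872, Zfp810 and the lysosomal hydrolases (adjusted p = 0.166 to 0.242), so that Gm13152 alone passed. Zfp872 did not pass without 1-month library 1 or 6-month library 1 (adjusted p up to 0.17). Zfp810, Man2b1, Naglu, Siae and Plbd2 did not pass whichever of the 4 libraries was left out (adjusted p up to 0.27, 0.412, 0.387, 0.449 and 0.369, in that order). Glb1 did not pass without 1-month library 2, 6-month library 1 or 6-month library 2 (adjusted p up to 0.362).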
